A study of Homo sapiens with 9 samples.

Results

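The mitosis and G2/M genes described here are 36 genes of cell division, listed by symbol and found by identifier in all 9 count tables, where they make up 36 of 60880 gene rows. They fall into 6 roles: 6 genes of mitotic entry (cyclins, CDK1, CDC25C and FOXM1), 5 genes for mitotic kinases and survivin, 6 for the spindle checkpoint and the ubiquitin ligase APC/C, 5 for centromere and chromosome proteins, 6 for spindle assembly and 8 for the midzone and cytokinesis. All 36 passed the filter on low counts.

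RNA came from LNCaP, an established prostate epithelial cancer cell line, in 3 groups of 3 libraries, all collected at 24 h per the labels. The control is labelled NT, the knockdown KD4 has lowered UGT2B28 by its label and was selected with puromycin at 3 µg/mL, and the rescue KD4OE overexpresses UGT2B28 on top of that knockdown and was selected with G418 at 1 mg/mL. No antibiotic is named for the control, so genotype and selection cannot be told apart. A single knockdown line was sequenced, and nothing in the labels says that replicates were cultured separately, so the p-values given here speak of variation among libraries that may be only technical. UGT2B28 encodes a glucuronosyltransferase, an enzyme family that makes steroids such as androgens water-soluble for removal.

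Mitotic genes are transcribed late in the cell cycle. In G0 and G1 the DREAM complex holds many of them silent, and in G2 the MuvB core of the same complex works with B-MYB and FOXM1 to switch them on. Many of their promoters carry a cell cycle genes homology region (CHR), a short element with the letters TTTGAA or TTTAAA that MuvB binds, together with CCAAT boxes, which bind NF-Y. The products then act in order: cyclin and CDK1 start mitosis, motors and microtubule proteins build the spindle, the checkpoint delays APC/C until chromosomes are attached, and the midzone proteins guide the cut between the daughter cells.

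The promoters of 8 members are printed here, and not every run holds both CHR letters and a CCAAT box. They are the 6 members with the smallest adjusted p between rescue and knockdown that have an entry in the RefSeq promoter table, and CCNB2 and HMMR, which had the smallest adjusted p between knockdown and control and were chosen after those values were seen. Each run is 5′ to 3′ on the gene's strand, from 250 bases before the start site to 25 after it, in build GRCh38.p14. Capitals mark matches on either strand to the CHR letters given above, to the CCAAT box, and to TAAACA, the core letters bound by forkhead factors. On the other strand TTTGAA reads as TTCAAA, the box CCAAT becomes ATTGG and the forkhead core becomes TGTTTA. MAD2L1 (chr4:120066824-120067098, minus strand), CCNA2 (chr4:121823859-121824133, minus), DLGAP5 (chr14:55191561-55191835, minus), KIF14 (chr1:200620727-200621001, minus), TOP2A (chr17:40417872-40418146, minus), BUB1B (chr15:40160819-40161093, plus), CCNB2 (chr15:59104896-59105170, plus) and HMMR (chr5:163460382-163460656, plus) follow.
MAD2L1: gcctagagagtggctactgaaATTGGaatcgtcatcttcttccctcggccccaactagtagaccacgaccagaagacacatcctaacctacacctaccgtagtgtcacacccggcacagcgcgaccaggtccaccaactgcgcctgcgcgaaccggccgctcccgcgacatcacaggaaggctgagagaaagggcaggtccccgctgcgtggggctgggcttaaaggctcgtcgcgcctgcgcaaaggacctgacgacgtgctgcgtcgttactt
CCNA2: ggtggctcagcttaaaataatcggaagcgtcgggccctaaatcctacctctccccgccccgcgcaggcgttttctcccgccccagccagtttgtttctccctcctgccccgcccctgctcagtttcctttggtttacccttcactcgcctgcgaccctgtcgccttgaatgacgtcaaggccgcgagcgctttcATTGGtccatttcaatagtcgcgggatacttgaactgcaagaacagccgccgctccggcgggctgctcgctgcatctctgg
DLGAP5: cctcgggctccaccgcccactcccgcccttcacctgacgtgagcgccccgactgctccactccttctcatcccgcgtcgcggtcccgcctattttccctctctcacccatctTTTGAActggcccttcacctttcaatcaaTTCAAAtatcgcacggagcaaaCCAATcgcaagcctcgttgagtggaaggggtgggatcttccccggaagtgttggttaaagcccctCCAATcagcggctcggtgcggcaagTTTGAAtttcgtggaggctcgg
KIF14: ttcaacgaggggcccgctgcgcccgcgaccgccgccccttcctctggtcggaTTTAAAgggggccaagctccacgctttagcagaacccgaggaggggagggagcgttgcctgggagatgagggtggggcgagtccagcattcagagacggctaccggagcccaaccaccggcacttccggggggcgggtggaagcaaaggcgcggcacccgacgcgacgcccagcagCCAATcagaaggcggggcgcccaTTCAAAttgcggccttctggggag
TOP2A: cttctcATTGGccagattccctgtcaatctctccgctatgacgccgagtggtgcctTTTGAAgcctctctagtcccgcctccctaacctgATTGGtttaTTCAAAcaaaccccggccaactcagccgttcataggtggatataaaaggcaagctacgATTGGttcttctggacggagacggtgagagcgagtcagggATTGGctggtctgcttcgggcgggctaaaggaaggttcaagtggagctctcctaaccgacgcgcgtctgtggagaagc
BUB1B: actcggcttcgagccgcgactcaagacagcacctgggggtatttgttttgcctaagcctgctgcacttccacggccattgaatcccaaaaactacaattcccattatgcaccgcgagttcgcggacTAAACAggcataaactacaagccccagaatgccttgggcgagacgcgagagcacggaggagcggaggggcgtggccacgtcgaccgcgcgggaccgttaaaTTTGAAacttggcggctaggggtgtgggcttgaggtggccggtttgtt
CCNB2: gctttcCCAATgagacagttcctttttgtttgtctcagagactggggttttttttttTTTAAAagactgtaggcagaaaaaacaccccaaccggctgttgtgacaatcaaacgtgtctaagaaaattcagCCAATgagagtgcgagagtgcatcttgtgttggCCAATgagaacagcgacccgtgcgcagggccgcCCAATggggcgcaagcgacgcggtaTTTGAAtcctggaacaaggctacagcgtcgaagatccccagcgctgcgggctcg
HMMR: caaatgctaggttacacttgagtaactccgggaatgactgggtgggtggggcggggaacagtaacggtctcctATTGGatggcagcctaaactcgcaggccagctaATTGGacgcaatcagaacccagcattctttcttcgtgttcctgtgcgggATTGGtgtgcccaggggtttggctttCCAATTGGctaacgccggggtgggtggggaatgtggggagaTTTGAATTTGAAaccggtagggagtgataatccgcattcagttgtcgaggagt

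The HMMR run held 5 CCAAT matches, 2 of which overlap in the letters CCAATTGG, and a pair of TTTGAA side by side just before the start. CCNB2 held 4 CCAAT matches, 1 TTTAAA and 1 TTTGAA, and TOP2A held 4 CCAAT matches and 2 TTTGAA. BUB1B held 1 TTTGAA and 1 TAAACA with no CCAAT, and CCNA2 held 1 CCAAT with none of the other letters. The TTTGAA counted for MAD2L1 lies between the end of the printed run and the end of the window. Over the full windows, from 250 bases before to 50 after the first listed start, 29 of the 36 members had an entry; FOXM1, AURKA, BIRC5, TTK, UBE2C, TPX2 and RACGAP1 had none. CHR letters of either spelling were in 24 of 29 members (82.8%), against 24.3% of 27305 promoters of the same length and 15.5% of the 11713 whose gene was tested here. A CCAAT match was in 24 of 29 (82.8%), against 35.7% of all and 36.4% of tested genes, and both elements together were in 20 of 29 (69.0%), against 9.49% and 6.28%. The forkhead letters TAAACA, which can overlap TTTAAA, were in 3 of 29 (10.3%), against 12.4% and 7.10%. Among the 11 members with an entry that rose from knockdown to rescue, 10 had CHR letters, and among the other 18 members 14 did. These matches describe letters in a window and not sites in use.

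Across the series, reads assigned to genes summed to 20300744 to 26459528 per library. UGT2B28 had 25, 4 and 10 reads in the control libraries, 17, 8 and 1 in those labelled knockdown and 1124, 1554 and 1857 in rescue, so its counts did not show the knockdown (log2 fold change -0.60, SE 0.62, adjusted p = 0.518) while they did show the overexpression. All 8 luminal prostate markers were expressed. Their summed level in CPM (counts scaled to a common library size) was 3887 to 4157 in control libraries. It was 7311 to 7668 in knockdown and 7756 to 8561 in rescue. KLK3 made most of that rise, with means of 1428, 3750 and 4407 CPM in control, knockdown and rescue. KRT8, at 1012, 1063 and 872 CPM, was the 1 luminal marker with a lower mean in rescue than in control. Of the markers of other cells, PTPRC and CD3E had 0 reads in all 9 libraries, DCN 1, LUM and COL1A2 2 each, TP63 5, CHGA 6, INSM1 8 and KRT5 48. Of the same lists KRT14, VWF, COL1A1 and SYP did pass the filter on low counts. KRT14 was at 1.77 ± 0.563, 4.11 ± 1.01 and 3.41 ± 0.823 CPM (SD, n = 3) in control, knockdown and rescue, VWF at 2.43 ± 0.653, 5.75 ± 0.534 and 6.47 ± 0.972, and both rose from control to knockdown, by 1.22 (SE 0.29) and 1.23 (SE 0.23) on the log2 scale (edgeR, adjusted p = 0.00165 and 1.20e-04). COL1A1 was at 68.2 ± 5.37, 48.4 ± 5.30 and 63.2 ± 6.62 CPM, a log2 change of -0.50 (SE 0.10) and then 0.39 (SE 0.10) (adjusted p = 1.83e-04 and 0.0081), and SYP at 0.644 ± 0.277, 1.06 ± 0.163 and 1.40 ± 0.335 with no adjusted p under 0.05. The part of the luminal and other markers in the results was not tested. Among the 36 members, control replicate 1 was the lowest of its group for 21 (58.3%), against 34.6% of all genes tested, and its part in the results was not tested beyond leaving it out.

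The members together rose in the rescue. Their share of gene counts was 0.345% to 0.356% in the control libraries, 0.344% to 0.374% in knockdown and 0.412% to 0.433% in rescue. Summed, they came to 3361, 3544 and 3480 CPM in control, 3733, 3609 and 3570 CPM in knockdown and 4313, 4164 and 4079.7 CPM in rescue, scaled by library size with TMM. On this scale every rescue library lay above all others, and every knockdown library above every control library by a smaller step. By share of gene counts the second of these did not hold, since knockdown replicate 2 (0.344%) lay below every control library. The sum in knockdown was 1.05 times and in rescue 1.21 times that in control. In bulk RNA, more cells in mitosis and more of each RNA per cell cannot be told apart.

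**Figure D1:**
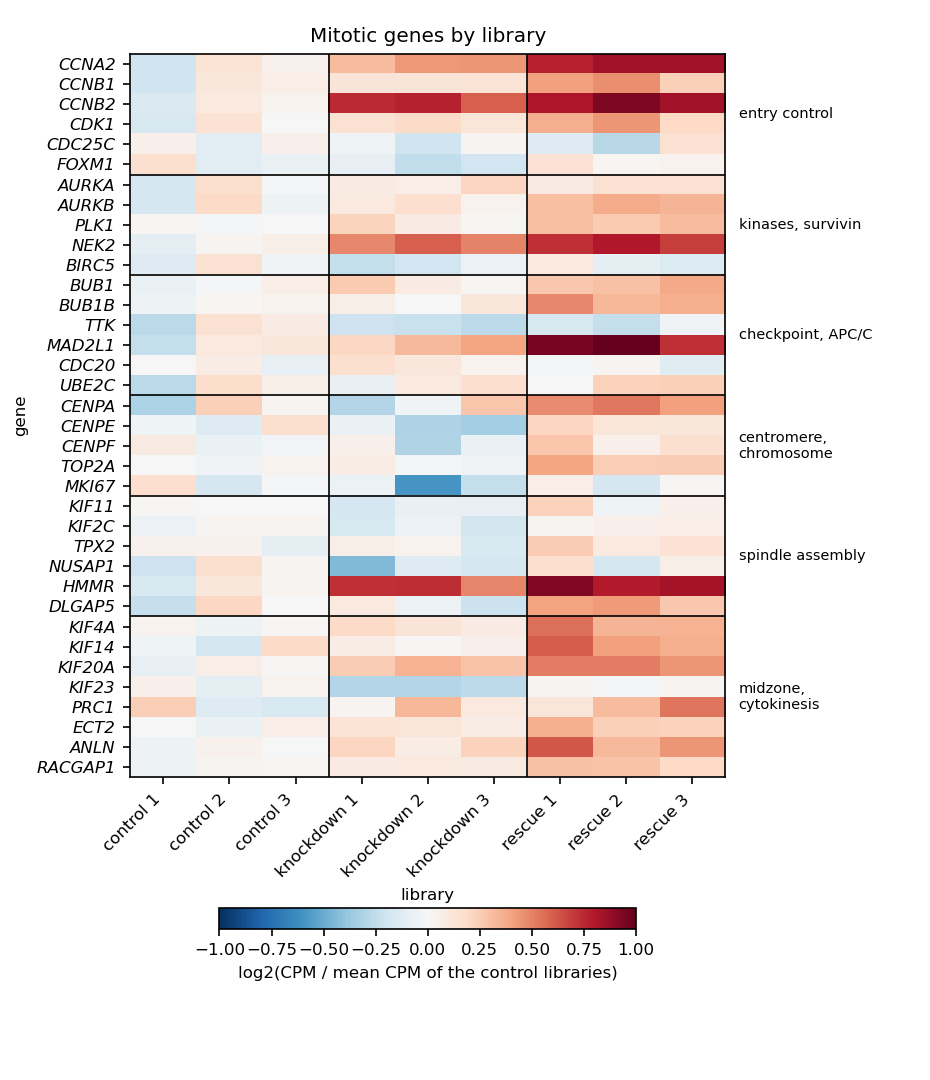
Level of each of the 36 genes (rows, by role) in each of the 9 libraries (columns) as log2 of CPM over the mean CPM of the control libraries. CCNA2, CCNB2, NEK2, MAD2L1 and HMMR are red in all 3 rescue libraries, while CDC25C, BIRC5, TTK and CDC20 stay pale there.

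Between knockdown and control few members changed, and not in 1 direction. Here and below a gene is called at an adjusted p under 0.05 in edgeR's quasi-likelihood test, and fold changes are log2. Of the 36 members 6 rose and 1 fell, that is 16.7% and 2.78%, where 16.5% of all 18389 genes tested were called higher and 15.6% lower (32.1% in all). The count of members that rose was thus near the background, and at this threshold fewer fell. At an unadjusted p under 0.05, 7 were higher and 5 lower, where 7487 of 18389 genes passed in either direction. DESeq2 and limma voom each called 6 members higher and 2 lower. Of all genes DESeq2 called 16.6% higher and 15.9% lower, and limma voom 16.3% and 15.8%. CCNB2, HMMR, NEK2, CCNA2, MAD2L1 and KIF20A rose and KIF23 fell. MAD2L1 was no longer called without control replicate 1 (adjusted p = 0.0861) or without knockdown replicate 3 (adjusted p = 0.0563). The members' median fold change was 0.08, against 0.01 over all genes tested, and it was 0.025 without control replicate 1. Members called lower went from 1 to 3 without control replicate 1, without control replicate 2 and without knockdown replicate 1. Of all genes 13.4%, 13.7% and 13.5% were called lower in those fits.

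From knockdown to rescue the change was broader and in 1 direction. Of the 36 members 12 rose (33.3%) and 0 fell, where 5.20% of all genes tested were called higher and 4.88% lower (10.1% in all). With no adjustment, 27 members were higher and 0 lower at p under 0.05, where 4203 of 18389 genes passed in either direction. DESeq2 called 14 members higher and 0 lower, against 6.04% and 5.24% of all genes. For limma voom the members were 11 and 0, against 5.24% and 4.45% of all genes. The 3 rescue libraries all lay above the 3 knockdown libraries for 27 members and below for 1, where 13.7% of all genes did each. The median fold change was 0.20, against -0.0048 over all genes. Of the 36 values 34 were positive, where 49.2% of all genes tested were. Single libraries set how many passed: 3 members were called without rescue replicate 1, where 3.34% of all genes were called higher, and 6 without knockdown replicate 2, where 3.83% were. CCNA2, MAD2L1 and DLGAP5 were called with any 1 library left out.

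Rescue stood furthest from control. Of the 36 members 20 rose (55.6%) and 0 fell, where 19.0% of all genes tested were called higher and 18.8% lower (37.8% in all). At an unadjusted p under 0.05, 21 were higher and 0 lower, where 8345 of 18389 genes passed in either direction. DESeq2 and limma voom each called 20 members higher and 0 lower. Of all genes DESeq2 called 19.4% higher and 18.9% lower, and limma voom 19.1% and 19%. The rescue libraries all lay above the control libraries for 22 members, and below for 0, where 24.1% and 24.0% of all genes did. The median fold change was 0.29, against -0.0025 over all genes. Of the 20 calls, 19 were made with any 1 library left out, and that of CENPA was lost without control replicate 1 (adjusted p = 0.0542). Group means rose from control to knockdown to rescue for 22 members (61.1%, against 23.4% of all genes tested), knockdown was the lowest for 12 (33.3%, against 25.7%), and rescue was the highest for 31 (86.1%, against 32.4%). The 3 comparisons share libraries, so their values are given side by side and not as support for each other.

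**Figure D2:**
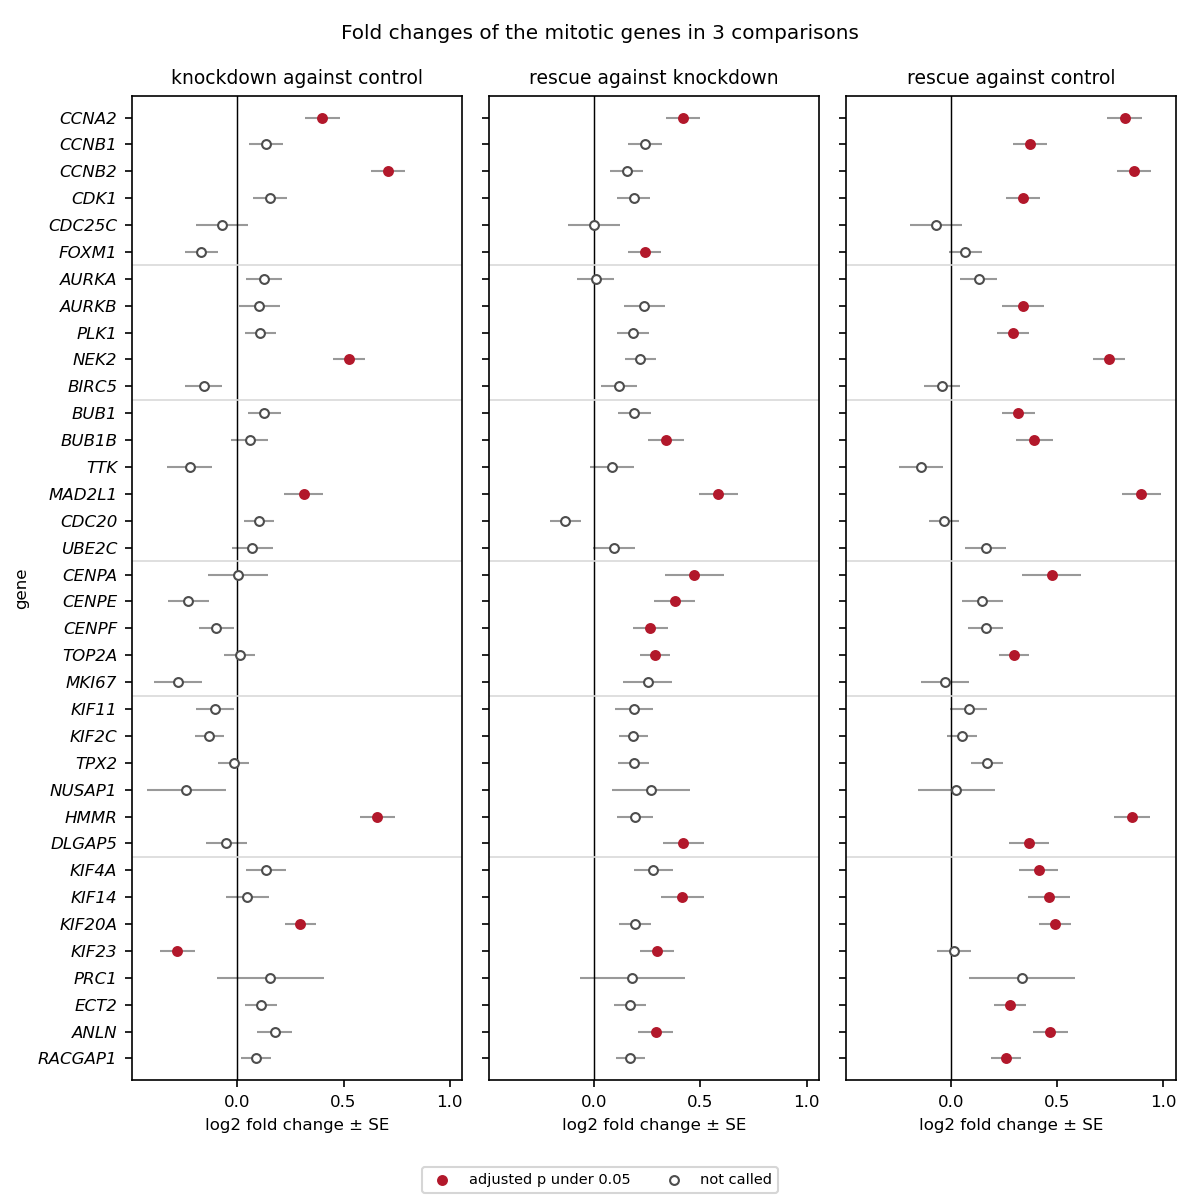
Log2 fold change with its SE for each of the 36 genes in the 3 comparisons; filled points have an adjusted p under 0.05 in edgeR. From knockdown to rescue 34 of 36 points lie right of 0, and 12 are filled; between knockdown and control 7 are filled.

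Among the genes of mitotic entry 4 of 6 rose between control and rescue, the 3 cyclins and CDK1 (66.7%, against 19.0% of all genes tested). CCNA2, cyclin A2, which partners CDK2 in S phase and CDK1 in G2, was at 61.4, 77.9 and 72.8 CPM in the control libraries, 88.2, 95.6 and 95.8 in knockdown and 121, 126 and 126 in rescue. The 3 groups did not overlap, and CCNA2 was the 1 member beside MAD2L1 to pass the test in all 3 comparisons. Its fold change was 0.40 (SE 0.08) from control to knockdown (adjusted p = 3.71e-04), 0.42 (SE 0.08) from knockdown to rescue (adjusted p = 7.73e-04) and 0.82 (SE 0.08) from control to rescue (adjusted p = 3.82e-09). CCNB2, a B-type cyclin, was at 60.5, 71.7 and 68.5 CPM in control, 112, 114 and 101 in knockdown and 117, 128 and 119.7 in rescue. Most of its rise was already present in the knockdown, at 0.71 (SE 0.08) (adjusted p = 4.54e-08), and the step from knockdown to rescue of 0.15 (SE 0.08) was not called (adjusted p = 0.246). CCNB1, the cyclin that drives CDK1 at the start of mitosis, was at 139 ± 16.0, 153 ± 0.223 and 181 ± 14.5 CPM (SD, n = 3) in control, knockdown and rescue, and CDK1 itself at 192 ± 20.1, 214 ± 4.99 and 243 ± 20.4. Both rose between control and rescue, by 0.37 (SE 0.08) and 0.34 (SE 0.08), and neither passed in the other comparisons. The knockdown-to-rescue step of CCNB1 lay just past the threshold (adjusted p = 0.0527) and was called in 8 of 18 alternatives (adjusted p = 0.0124 to 0.0487), while CDK1 was called from control to knockdown in 1, without control replicate 2 (0.0419).

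CDC25C and FOXM1, the other members of this role, were not called between control and rescue. CDC25C, the phosphatase that removes the inhibitory phosphates from CDK1, was at 21.3, 19.1 and 21.3 CPM in control, 20.0, 17.9 and 20.9 in knockdown and 18.8, 17.0 and 22.8 in rescue. Its groups overlapped throughout and no test passed. FOXM1, the transcription factor of many G2/M genes, was at 139.9, 116 and 119.9 CPM in control, 119, 106 and 110.0 in knockdown and 139, 127 and 129 in rescue. It was lowest in knockdown, and its rise to rescue of 0.24 (SE 0.08) passed narrowly (adjusted p = 0.0498). That call was lost when any of 7 libraries was left out, with an adjusted p of up to 0.219 without rescue replicate 1, and by limma voom (0.0602). Rescue and control FOXM1 overlapped, at 0.068 (SE 0.08) (adjusted p = 0.539). On the opposite strand CCNA2, CDC25C and FOXM1 share 9.08%, 8.78% and 15.9% of their exon bases with EXOSC9, FAM53C and ITFG2. Of members described below, PLK1 shares 11.6% with AC008870.3 and KIF2C 4.80% with AL592166.1 on the opposite strand. On the same strand BUB1B shares 10.2% with BUB1B-PAK6 and CENPA 6.96% with SLC35F6. The strand setting of the counting is not given in the sources used here.

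NEK2 was the 1 mitotic kinase called between control and knockdown. NEK2, a kinase that helps to separate the centrosomes, was at 73.0, 79.6 and 81.2 CPM in control, 109, 118 and 110.1 in knockdown and 129, 136 and 126 in rescue. Its 3 groups did not overlap, and it rose by 0.53 (SE 0.07) from control to knockdown (adjusted p = 2.12e-06) and by 0.74 (SE 0.07) from control to rescue (adjusted p = 3.29e-09). The step from knockdown to rescue was 0.22 (SE 0.07) (adjusted p = 0.0569), and it was called in 6 of 18 alternatives (adjusted p = 0.0267 to 0.0419). AURKB, the kinase of the chromosomal passenger complex, was at 38.0 ± 4.88, 40.8 ± 1.84 and 48.1 ± 1.21 CPM (SD, n = 3) in control, knockdown and rescue, and PLK1, polo-like kinase 1, at 92.6 ± 1.32, 99.8 ± 7.43 and 113 ± 2.18. Both passed in rescue against control alone, at 0.34 (SE 0.10) and 0.29 (SE 0.07). AURKA, the spindle pole kinase, was at 63.4 ± 7.19, 69.1 ± 3.88 and 69.4 ± 2.07 CPM, and BIRC5, which encodes survivin of the passenger complex, at 92.6 ± 9.31, 82.9 ± 5.26 and 89.9 ± 7.87. For AURKA and BIRC5 all pairs of groups overlapped and no test passed; without control replicate 1 BIRC5 was called lower in knockdown, at -0.23 (adjusted p = 0.0469). From knockdown to rescue edgeR called 0 of the 5 genes of this role, where it called 5.20% of all genes higher and 4.88% lower. At an unadjusted p under 0.05 3 were higher, DESeq2 called 1 and limma voom 0.

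In the spindle checkpoint MAD2L1 rose most of all 36 members in the rescue. MAD2L1, the checkpoint protein that holds back CDC20, was at 50.1, 63.3 and 63.8 CPM in control, 68.3, 73.9 and 77.5 in knockdown and 114, 118 and 98.0 in rescue. The lowest rescue library was above the highest knockdown library. The fold change was 0.58 (SE 0.09) from knockdown to rescue (adjusted p = 6.52e-05) and 0.90 (SE 0.09) from control to rescue (adjusted p = 8.77e-09), against 0.31 (SE 0.09) from control to knockdown (adjusted p = 0.0107). BUB1B, which encodes the checkpoint protein BUBR1, was at 46.0, 48.3 and 49.0 CPM in control, 49.9, 47.7 and 51.5 in knockdown and 66.7, 60.0 and 61.5 in rescue. Control and knockdown overlapped, and the rise to rescue was 0.34 (SE 0.08) (adjusted p = 0.0091, and 0.0728 without rescue replicate 1). BUB1, the kinase that recruits the checkpoint to kinetochores, was at 87.1 ± 4.07, 95.1 ± 8.50 and 108 ± 4.49 CPM (SD, n = 3) and passed in rescue against control alone, at 0.32 (SE 0.08). TTK, the kinase MPS1 at the head of the checkpoint, was at 35.1, 47.2 and 45.1 CPM in control, 36.9, 36.5 and 35.5 in knockdown and 38.0, 35.9 and 41.4 in rescue. In TTK the control libraries spanned the other groups and no test passed; without control replicate 1 it was called lower in knockdown, at -0.35 (adjusted p = 0.00739), and in rescue, at -0.26 (adjusted p = 0.0410).

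CDC20 and UBE2C, which act in APC/C, were not called in any comparison. CDC20, which activates APC/C when the checkpoint is satisfied, was at 362, 379.7 and 341 CPM in control, 404, 390.5 and 369 in knockdown and 358, 368 and 333 in rescue. It was the 1 member with its highest mean in knockdown and the 1 member whose rescue libraries all lay below the knockdown libraries, at -0.14 (SE 0.07) (adjusted p = 0.265, not called). UBE2C, the conjugating enzyme of APC/C, was at 78.7, 107 and 98.9 CPM in control, 90.4, 102 and 107 in knockdown and 95.0, 111 and 112 in rescue, with overlap between all groups. Without control replicate 2 it was called higher in rescue than in control, at 0.26 (adjusted p = 0.0484). Reads of UBE2C may be shared with its pseudogene UBE2CP5, which had 1093 counts over the 9 libraries.

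Centromere and chromosome proteins rose from knockdown to rescue in 4 of 5 cases (80%, against 5.20% of all genes tested). Between knockdown and control 0 of them were called, where 32.1% of all genes were. TOP2A, the topoisomerase that untangles sister chromatids, was at 394, 386 and 404 CPM in control, 416, 392 and 385 in knockdown and 518, 468 and 469.5 in rescue. Control and knockdown overlapped and all rescue libraries were higher, by 0.29 (SE 0.07) over knockdown (adjusted p = 0.00796, and 0.0872 without rescue replicate 1). CENPE, the kinetochore motor that brings chromosomes to the plate, was at 46.4, 43.9 and 53.5 CPM in control, 45.8, 38.7 and 37.8 in knockdown and 55.6, 52.0 and 51.8 in rescue. It rose by 0.38 (SE 0.10) from knockdown to rescue (adjusted p = 0.0101), while rescue and control overlapped. Its knockdown value against control of -0.23 (SE 0.10) (adjusted p = 0.0697) was called in 4 of 18 alternatives (adjusted p = 0.0219 to 0.0470). CENPA, the histone variant that marks centromeres, was at 14.3, 21.1 and 18.2 CPM in control, 14.6, 17.5 and 21.6 in knockdown and 24.8, 25.7 and 23.7 in rescue, a rise of 0.47 (SE 0.14) (adjusted p = 0.0281) among low and scattered values. CENPF, a kinetochore and microtubule-binding protein, was at 165 ± 9.34, 154 ± 18.5 and 185 ± 14.6 CPM (SD, n = 3) and rose by 0.26 (SE 0.08) from knockdown to rescue (adjusted p = 0.0377). The calls of CENPE, CENPA and CENPF were lost without 3, 5 and 5 of the libraries in turn, with adjusted p up to 0.0651 (without knockdown replicate 3), 0.172 (without knockdown replicate 1) and 0.235 (without knockdown replicate 2). CENPF gained a call in rescue against control without control replicate 1 (0.0494).

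MKI67, the proliferation antigen Ki-67 that coats mitotic chromosomes, did not pass in any comparison. It was at 193, 153 and 169.6 CPM in control, 164, 114 and 146 in knockdown and 179.7, 153 and 173 in rescue. Knockdown replicate 2 was the lowest of all 9 libraries, and every pair of groups overlapped. The fold change from control to knockdown was -0.28 (SE 0.11) (adjusted p = 0.0769). It was called lower in 6 of 18 alternatives, among them DESeq2 (adjusted p = 0.0440), limma voom (0.0337), no filter on low counts (0.00385), and without control replicate 2 (0.0204) or knockdown replicate 1 (0.00638). Its step from knockdown to rescue was 0.25 (SE 0.11) (adjusted p = 0.203), and it was called higher in 3 of 18, among them no filter (0.0277) and without knockdown replicate 1 (0.0311).

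**Figure D3:**
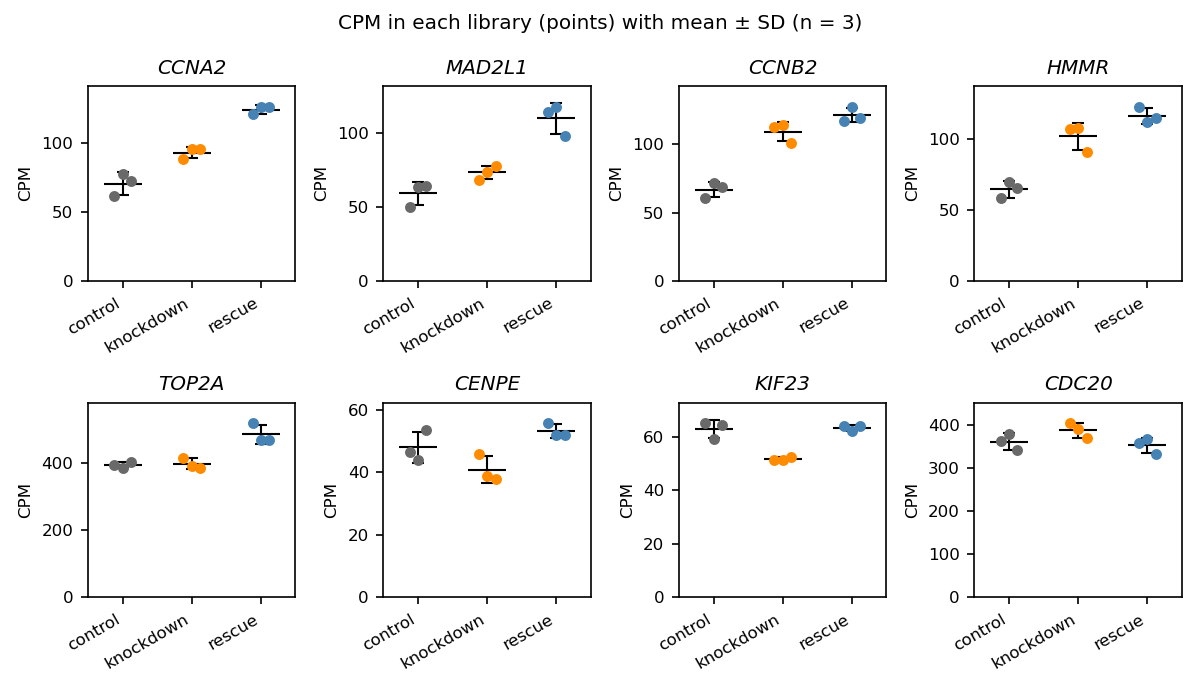
CPM of 8 members in each library (points) with the group mean and SD (n = 3); every axis starts at 0. MAD2L1 and CCNA2 step up from control to knockdown to rescue, CCNB2 and HMMR are already high in knockdown, TOP2A rises in rescue alone, KIF23 and CENPE are lowest in knockdown, and CDC20 is highest there.

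In spindle assembly HMMR and DLGAP5 changed and the other 4 genes did not pass. HMMR, a microtubule-binding protein that focuses spindle poles, was at 58.1, 69.7 and 65.7 CPM in control, 107, 108 and 90.6 in knockdown and 123, 112 and 115 in rescue. As in CCNB2, the difference was present in the knockdown, at 0.66 (SE 0.08) (adjusted p = 4.37e-07), and the further step to rescue was 0.19 (SE 0.08) (adjusted p = 0.153). HMMR shares 2.87% of its exon bases with HMMR-AS1 on the opposite strand. DLGAP5, the spindle protein HURP, was at 70.3, 95.5 and 82.2 CPM in control, 88.5, 79.3 and 71.1 in knockdown and 109, 111 and 99.7 in rescue. Control and knockdown overlapped, and rescue lay above both, by 0.42 (SE 0.10) over knockdown (adjusted p = 0.00434) and 0.37 (SE 0.10) over control (adjusted p = 0.00314).

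KIF11, the motor that pushes spindle poles apart, was at 52.4 ± 0.282, 48.8 ± 1.71 and 55.6 ± 5.48 CPM (SD, n = 3) in control, knockdown and rescue. KIF2C, which takes apart microtubule ends at centromeres, was at 151 ± 5.15, 138 ± 6.48 and 157 ± 2.12, and TPX2, the activator of Aurora A, at 169 ± 8.91, 166 ± 13.0 and 189 ± 10.7. NUSAP1, a protein that bundles spindle microtubules, was at 6.14, 7.93 and 7.22 CPM in control, 5.22, 6.48 and 6.30 in knockdown and 7.99, 6.30 and 7.38 in rescue. All 4 had their lowest mean in knockdown and their highest in rescue, with no call in any of the 3 comparisons. In KIF11, KIF2C and TPX2 the rescue libraries all lay above the knockdown libraries, and KIF2C was called there when scaled by library totals (adjusted p = 0.0464). In the later annotation used for gene models NUSAP1 shares 62.2% of its exon bases with the model AC087721.2 on the same strand, so its level is uncertain.

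At the midzone and in cytokinesis 6 of 8 genes rose between control and rescue (75%, against 19.0% of all genes tested). KIF14, a motor of the midbody, was at 34.4, 31.5 and 40.6 CPM in control, 37.3, 35.8 and 36.7 in knockdown and 53.9, 47.1 and 45.7 in rescue. Its rescue libraries lay above all others, by 0.41 (SE 0.10) over knockdown (adjusted p = 0.00676, and 0.0695 without rescue replicate 1). KIF20A, the midzone motor MKLP2, was at 71.9, 79.5 and 76.5 CPM in control, 90.7, 96.7 and 92.5 in knockdown and 108, 108 and 103 in rescue. The 3 groups of KIF20A did not overlap, and it rose by 0.30 (SE 0.07) from control to knockdown (adjusted p = 0.00267) and 0.49 (SE 0.07) from control to rescue (adjusted p = 5.02e-06). ANLN, the scaffold anillin of the cleavage furrow, was at 67.5, 72.0 and 70.1 CPM in control, 81.0, 73.7 and 82.1 in knockdown and 108, 87.3 and 94.9 in rescue. It rose by 0.29 (SE 0.08) from knockdown to rescue (adjusted p = 0.0218). Leaving out knockdown replicate 2 (0.107) or rescue replicate 1 (0.196) ended that call.

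KIF23 was the 1 member called lower in the knockdown, and it rose again in the rescue. KIF23, the MKLP1 subunit of centralspindlin, was at 65.2, 59.2 and 64.7 CPM in control, 51.6, 51.4 and 52.5 in knockdown and 64.2, 62.3 and 64.3 in rescue. The knockdown libraries lay below all the rest, while control and rescue overlapped. It fell by 0.28 (SE 0.08) from control to knockdown (adjusted p = 0.00819) and rose by 0.30 (SE 0.08) to rescue (adjusted p = 0.0178). The second of these calls was lost without each of 4 libraries in turn, with an adjusted p of up to 0.0664 (without rescue replicate 1). RACGAP1, its partner in centralspindlin, had its lowest mean in control and was at 103 ± 3.01, 109.9 ± 0.847 and 124 ± 4.57 CPM (SD, n = 3) in control, knockdown and rescue.

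KIF4A, a chromosome motor that also limits midzone length, was at 36.2 ± 1.14, 39.8 ± 1.42 and 48.3 ± 4.07 CPM, and ECT2, the exchange factor that activates RhoA at the furrow, at 77.8 ± 3.57, 84.0 ± 2.07 and 94.3 ± 4.68. With RACGAP1, both passed in rescue against control alone: the fold changes were 0.41 (SE 0.09), 0.28 (SE 0.08) and 0.26 (SE 0.07). The groups of these 3 genes did not overlap in any comparison. KIF4A was also called from knockdown to rescue in 7 of 18 alternatives (adjusted p = 0.0268 to 0.0482), DESeq2 among them. PRC1, the protein that bundles midzone microtubules, was at 2.84 ± 0.462, 3.17 ± 0.358 and 3.58 ± 0.518 CPM with no call. PRC1 shares 57.6% of its exon bases with the model AC068831.7 on the same strand, which took 3039 counts over the 9 libraries against 690 for PRC1, so its level is uncertain.

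Levels between genes were compared per length, as CPM per kb of exon. In control CDC20 was highest at 177 ± 9.40 (SD, n = 3), followed by UBE2C at 73.9 ± 11.5, TOP2A at 61.3 ± 1.46, CCNB1 at 54.5 ± 6.26 and CDK1 at 49.0 ± 5.11. The control libraries of UBE2C and TOP2A overlapped on this scale, as did those of CCNB1 and CDK1. These 5 genes kept that order in knockdown and rescue. At the low end KIF14 was at 4.87 ± 0.636 and CENPE at 5.08 ± 0.523, whose control libraries overlapped. Below them were NUSAP1 at 2.47 ± 0.315 and PRC1 at 0.513 ± 0.0835. The places of NUSAP1 and PRC1 are uncertain, since they share 62.2% and 57.6% of their exon bases with other models on the same strand. MAD2L1 moved from rank 27 of 36 in control to rank 20 in rescue, where it was at 19.1 ± 1.81.

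Other genes of mitosis were taken in lists of the same roles. Kinetochore genes rose in 5 of 19 cases from control to knockdown and fell in 0, where at an unadjusted p under 0.05 8 were higher and 0 lower and DESeq2 and limma voom gave 5 and 0 each. That is 26.3% higher, against 16.5% of all genes tested. From knockdown to rescue 2 rose and 1 fell (10.5% and 5.26%, against 5.20% and 4.88%). From control to rescue 7 rose and 1 fell (36.8% and 5.26%, against 19.0% and 18.8%). CENPN, which reads CENPA nucleosomes, was at 63.0 ± 5.57, 195 ± 7.53 and 145 ± 13.5 CPM (SD, n = 3) in control, knockdown and rescue, a change of 1.63 (SE 0.08) and then -0.43 (SE 0.08). CENPU rose by 0.71 (SE 0.12) from control to knockdown, and SPC24, of the NDC80 complex, by 0.34 (SE 0.09) from knockdown to rescue. Of the 18 further spindle and cytokinesis genes 1 rose and 5 fell from control to knockdown (5.56% and 27.8%, against 16.5% and 15.6%). From knockdown to rescue 5 rose and 0 fell (27.8% higher, against 5.20% of all genes tested). At an unadjusted p under 0.05 it was 8 and 0 there, and DESeq2 and limma voom called 5 and 0 each. From control to rescue 6 rose and 2 fell (33.3% and 11.1%, against 19.0% and 18.8%). TACC3, which stabilises spindle fibres, was at 179, 189 and 184 CPM in control, 135, 144 and 165 in knockdown and 209.9, 211 and 206 in rescue, lowest in knockdown with no overlap. DEPDC1 fell by 1.46 (SE 0.12) from control to knockdown, with means of 48.9 ± 3.67, 17.7 ± 3.31 and 21.5 ± 2.00 CPM over the 3 groups, and FAM83D, a spindle protein, rose by 0.52 (SE 0.09) from control to rescue.

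Of 8 condensin genes edgeR called 1 lower from control to knockdown (NCAPD2, -0.22 (SE 0.07)), 12.5% against 15.6% of all genes. From knockdown to rescue it called none, while 2 were higher at an unadjusted p under 0.05, DESeq2 called 1 and limma voom 0. From control to rescue edgeR called 1 higher (NCAPD3, 0.29 (SE 0.07)), 12.5% against 19.0%. Of 11 genes of cohesin, securin and separase 1 rose from control to knockdown, 2 rose and 2 fell from knockdown to rescue, and 4 rose and 1 fell from control to rescue. The shares called from knockdown to rescue were 18.2% higher and 18.2% lower, against 5.20% and 4.88% of all genes tested. From control to knockdown 9.09% were higher, against 16.5%. From control to rescue 36.4% were higher and 9.09% lower, against 19.0% and 18.8%. The 2 forms of the PDS5 cohesin regulator went opposite ways from knockdown to rescue: PDS5B rose by 0.53 (SE 0.08) and PDS5A changed by -0.30 (SE 0.07). RAD21, the cohesin kleisin, rose by 0.25 (SE 0.07). Of 5 genes of the passenger complex and shugoshins edgeR, DESeq2 and limma voom called 0 in any comparison, and 1, 2 and 1 had an unadjusted p under 0.05 in the 3 comparisons. SGO1 was at 22.0 ± 1.54, 23.0 ± 1.61 and 26.0 ± 1.83 CPM, SGO2 at 27.6 ± 1.73, 23.5 ± 0.855 and 28.1 ± 1.17, and INCENP at 118 ± 7.39, 107 ± 5.17 and 119.9 ± 3.58.

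Among regulators of entry and exit, single genes changed in both directions. WEE1, the kinase that puts the inhibitory phosphate on CDK1, was at 385, 386 and 379 CPM in control, 247, 236 and 220.4 in knockdown and 200.4, 168 and 172 in rescue. WEE1 thus fell at both steps, with log2 fold changes of -0.71 (adjusted p = 1.30e-08) and -0.38 (adjusted p = 8.84e-04). CKS2, a small CDK-binding protein, rose by 0.84 (SE 0.16) from control to knockdown, and ARPP19, whose phosphorylated form inhibits the phosphatase PP2A, by 0.26 (SE 0.07). In all, of 12 such regulators 3 rose and 1 fell from control to knockdown (25% and 8.33%, against 16.5% and 15.6% of all genes). From knockdown to rescue 1 rose and 1 fell (8.33% each, against 5.20% and 4.88%). From control to rescue 5 rose and 2 fell (41.7% and 16.7%, against 19.0% and 18.8%). Of 17 APC/C subunits and inhibitors 3 rose and 3 fell from control to knockdown, 17.6% each and near the shares of all genes. Between control and rescue 4 of these genes rose and 2 fell (23.5% and 11.8%, against 19.0% and 18.8%). From knockdown to rescue edgeR, DESeq2 and limma voom called 0 of them, with 2 at an unadjusted p under 0.05. FZR1, the activator CDH1, was at 111 ± 1.38, 79.6 ± 5.92 and 76.5 ± 2.98 CPM in control, knockdown and rescue, and ANAPC2, the cullin subunit, at 114 ± 1.93, 84.6 ± 9.14 and 79.7 ± 1.38. UBE2S, which extends ubiquitin chains, rose by 0.30 (SE 0.08) from control to knockdown.

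The complexes DREAM, MuvB and NF-Y act on the CHR and CCAAT elements. Of their 14 genes listed 3 rose and 2 fell from control to knockdown (21.4% and 14.3%, against 16.5% and 15.6% of all genes). From knockdown to rescue 1 rose and 0 fell (7.14% higher, against 5.20%). At an unadjusted p under 0.05 it was 4 and 2 there, and DESeq2 and limma voom called 1 and 0. From control to rescue 2 rose and 2 fell (14.3% each, against 19.0% and 18.8%). RBL2, the p130 subunit of DREAM, was at 160.0, 166 and 159.7 CPM in control, 120.4, 116 and 110.4 in knockdown and 136, 134 and 142 in rescue, lowest in knockdown with no overlap between groups. NFYB, a subunit of NF-Y, rose by 0.56 (SE 0.09) and LIN9, of the MuvB core, by 0.49 (SE 0.13) from control to knockdown, and neither passed from knockdown to rescue.

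CDK inhibitors and genes of G1/S were set beside the members. Of 7 CDK inhibitors 3 rose and 0 fell from control to knockdown (42.9% higher, against 16.5% of all genes). At an unadjusted p under 0.05 it was 4 and 1, and DESeq2 and limma voom called 3 and 0. From knockdown to rescue 1 rose and 1 fell (14.3% each, against 5.20% and 4.88%). From control to rescue 4 rose and 2 fell (57.1% and 28.6%, against 19.0% and 18.8%). CDKN1A, the inhibitor p21, was at 320.1, 372 and 373 CPM in control, 421, 488 and 446 in knockdown and 583, 660.3 and 667 in rescue, and rose at both steps, by 0.35 (SE 0.08) and 0.50 (SE 0.08). CDKN2A went from 27.9 ± 1.18 CPM in control and 26.7 ± 3.03 in knockdown to 13.4 ± 1.57 in rescue, and CDKN2C rose by 0.71 (SE 0.11) from control to knockdown. Of 21 genes of G1/S and replication 5 rose and 1 fell from control to knockdown (23.8% and 4.76%, against 16.5% and 15.6%). From knockdown to rescue 1 rose and 1 fell, 4.76% each and near the shares of all genes. From control to rescue 10 rose and 1 fell (47.6% and 4.76%, against 19.0% and 18.8%). RRM2, a subunit of ribonucleotide reductase, was at 49.3, 56.1 and 58.9 CPM in control, 38.1, 39.7 and 38.5 in knockdown and 52.2, 48.3 and 48.7 in rescue, lowest in knockdown. CDT1, the licensing factor, fell by 0.38 (SE 0.09) from knockdown to rescue, and HELLS rose by 0.82 (SE 0.16) from control to knockdown.

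**Figure D4:**
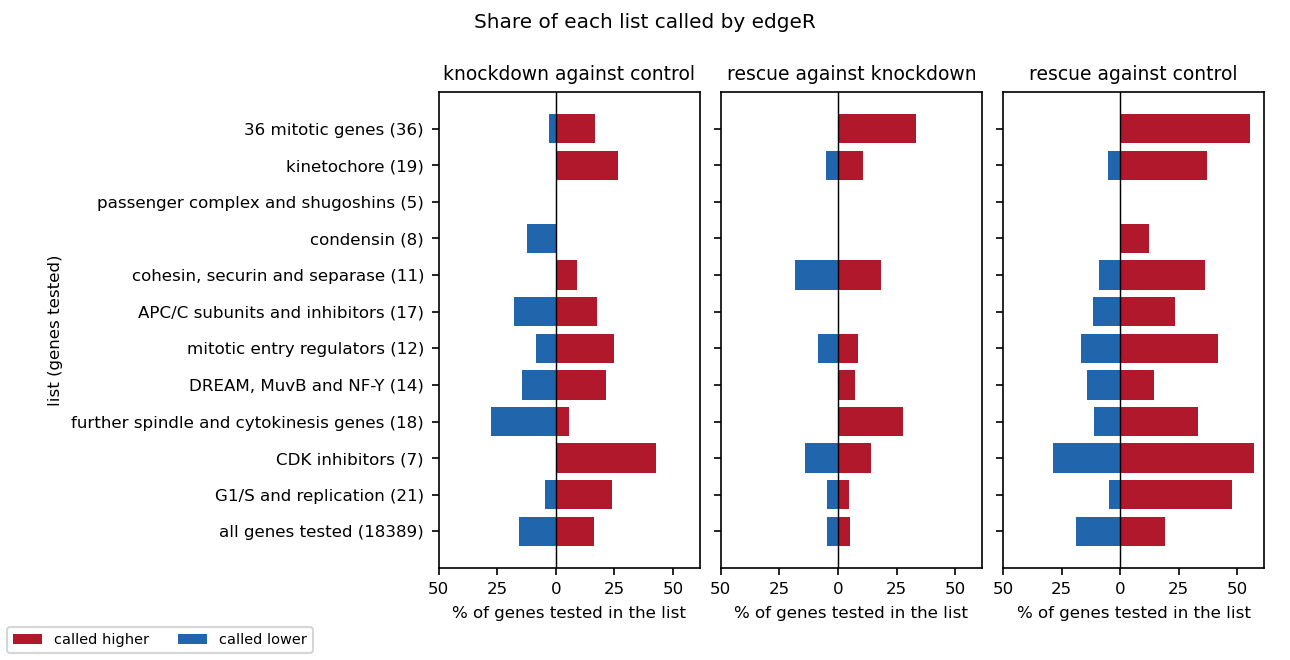
Share of the genes tested in each list that edgeR called higher (right) or lower (left) in the 3 comparisons, with all 18389 genes at the bottom. From knockdown to rescue 33.3% of the 36 genes were called higher against 5.20% of all genes, and 0 lower.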

How the data were processed

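RNA-seq of 9 LNCaP libraries was analysed, 3 per group. The authors deposited unnormalized read counts for each gene of a library. HTSeq, HISAT2, cutadapt and FastQC are named with build hg19, per the submitters' processing notes. No versions, kit or strand setting for the counting were found in those sources. Summary rows were left out: reads in no gene (48.8% to 50.7% of each table), ambiguous reads (2.26% to 2.67%) and reads not aligned uniquely (5.26% to 7.62%). Symbols were matched by identifier; GENCODE release 29, of another build, gave exon lengths and overlaps of gene models, and promoters came from RefSeq.

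Counts were tested in R 4.3.3 with edgeR 4.0.16: filterByExpr with a minimum count of 10 (18389 genes kept), TMM, and a robust quasi-likelihood fit to the 9 libraries in 3 groups, leaving 6 residual degrees of freedom. P-values were adjusted by Benjamini-Hochberg over all genes tested and called under 0.05. The SE was taken as the size of the log2 fold change divided by the root of its F statistic. DESeq2 1.42.0, limma voom (limma 3.58.1), other scalings and filters, a replicate block, a tested fold above 1.2 and leaving out each library were alternatives. Named genes are all 36 members and, of each other list, the 3 with the smallest adjusted p in any comparison. The members and lists were chosen with earlier results of these data known, so no test over the list was made. No 2 libraries held identical counts.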

Additional observations from a re-analysis of the deposited data

How the results depend on the processing

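Of the 39 calls on members, none turned direction in any alternative run. In edgeR 1 member was called lower from control to knockdown, where 15.6% of all genes were. With DESeq2, limma voom, library totals and no filter it was 2 each, and with a tested fold above 1.2 it was 0. The shares of all genes called lower were 15.9%, 15.8%, 17.4%, 8.17% and 8.17% in that order. With 1 library left out, members called lower ranged from 1 to 3, where 12.8% to 15.2% of all genes were. Members called higher with a tested fold above 1.2 were 3, 1 and 8 in knockdown against control, rescue against knockdown and rescue against control. Of all genes 7.99%, 1.57% and 10.9% were called higher there. With 1 library left out, members called higher ranged from 3 to 15 from knockdown to rescue, where 3.34% to 6.52% of all genes were. Members called lower ranged from 0 to 1 between control and rescue, where 15.4% to 18.4% of all genes were. The members' median from control to knockdown was 0.042 with library totals and ranged from 0.025 to 0.097 with 1 library left out. Whether replicate numbers pair the libraries was not settled. Deviations of libraries with the same number correlated at -0.037 to 0.077, and those with different numbers at -0.089 to 0.077. Of the 9 libraries 5 correlated best with their own number. With the replicate block, 6 members rose and 4 fell from control to knockdown, where 17.9% of all genes were called higher and 16.7% lower. From knockdown to rescue 17 members rose and 0 fell with the block, against 6.44% and 6.17% of all genes. From control to rescue 22 rose and 0 fell, against 20.2% and 19.9%. Without the block the members that rose and fell were 6 and 1, 12 and 0, and 20 and 0 in the same order. The shares of all genes without it were 16.5% and 15.6%, 5.20% and 4.88%, and 19.0% and 18.8%. All genes thus gained calls with the block too. Of the uncalled member values 16 were called by some alternative, 10 of them by the replicate block and 3 by it alone (FOXM1 in knockdown against control, and TPX2 in both comparisons of the rescue). With the block MKI67 was called in knockdown against control (adjusted p = 8.93e-04) and in rescue against knockdown (0.00638), and the CCNB1 step to rescue was called too (0.0245). The cause of these moves was not tested.

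Of the 108 fold changes of members, 23 lay within 1 SE of 0, and 46 settings over 14 of the uncalled values turned their sign, all without a call. These values are too near 0 for a direction. In knockdown against control, the values and their range with 1 library left out were UBE2C 0.070 (-0.053 to 0.17), CENPA 0.0015 (-0.15 to 0.14), TOP2A 0.010 (-0.021 to 0.036), TPX2 -0.018 (-0.064 to 0.048), DLGAP5 -0.052 (-0.16 to 0.065) and KIF14 0.047 (-0.030 to 0.15). CENPA turned to -0.0020 with DESeq2, -0.0017 with its size factors, -0.035 with library totals, -0.0088 with a minimum count of 50 and -0.0024 with the 2 groups compared. TOP2A turned to -0.028 with library totals and -0.0013 with a minimum count of 50. In rescue against knockdown, the values and their range with 1 library left out were CDC25C -0.00091 (-0.13 to 0.091) and AURKA 0.0064 (-0.016 to 0.053). CDC25C turned to 0.0057 with DESeq2, 0.0057 with its size factors, 0.022 with library totals, 0.0011 without the filter, 0.0038 with a minimum count of 50 and 0.0023 with the 2 groups compared. In rescue against control, the values and their range with 1 library left out were CDC25C -0.072 (-0.20 to 0.022), BIRC5 -0.043 (-0.11 to 0.039), CDC20 -0.034 (-0.072 to 0.0094), MKI67 -0.028 (-0.10 to 0.063), NUSAP1 0.026 (-0.071 to 0.12) and KIF23 0.013 (-0.030 to 0.038). KIF23 turned to -0.0026 with library totals. Low counts limit PRC1 and NUSAP1, whose SEs were 0.25 and 0.18.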
